A study of Homo sapiens with 8 samples.

Results

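The comparison asks what 2 Gy of ionizing radiation did in cells that already held a DNA minor groove ligand. It sets cells given the ligand at 50 µM and, 1 h later, 2 Gy against cells given the ligand at 50 µM alone. Both come from a line of human embryonic kidney (HEK) cells, plated 24 h before treatment and left for 4 h after it, so the ligand is shared by both groups and radiation is what differs. Because the ligand preceded radiation by 1 h in the first group, the time since the ligand may also differ between them. The members are the 4 arrays with these titles out of 8 in the study. Each treatment has 1 array of each of 2 chips, A and B, which carry different probes, 19700 per chip. The other 4 arrays, from cells given 2 Gy alone and from untreated cells, serve here to show where the paired arrays lie.

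According to the series title, the study concerns how a minor groove binding ligand acts as a radiation modulator. The labels do not name the ligand and do not say which HEK line was used. The labelled cell type could not be checked against marker genes, since no table used here links probe IDs to genes.

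Minor groove ligands are small molecules that lie along the shallower of the grooves of the DNA helix, typically over runs of A and T. Ionizing radiation breaks DNA strands, in part through radicals formed in water. In mammalian cells the breaks activate the kinase ATM, which stabilises the transcription factor p53, and p53 induces genes such as CDKN1A (a cell cycle inhibitor) and MDM2 (its own inhibitor) within hours. NF-kB, a factor of inflammatory and survival genes, is also activated by DNA breaks. Without such a link the probes of these genes cannot be picked out here, so results are described by groups of probes, with at most 1 probe per direction and chip printed by its ID.

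Every value below rests on 1 array per treatment and chip. There is no replicate check, no p-value and no error beyond the spread over probes, which are not replicates. Values are differences in quantile-normalized log2 intensity, combined treatment minus ligand alone, for the brighter 50% of probes of each chip by their mean over its 4 arrays (9848 of 19696 probes with a value on chip A, 9849 of 19699 on chip B). A probe is called higher or lower at a difference of 1 log2 unit (2-fold) in either direction, which is a cut-off on size with no test behind it. The median intensity of the 4 member arrays lay between 166.5 and 225. The radiation array of chip A stood apart at 34.5, against 218.5 on the untreated array of that chip. It enters no difference of the comparison, but does enter the normalization and the brightness rule.

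Radiation in ligand-pretreated cells went with many small differences on chip A and few on chip B, and the chips leaned opposite ways. On chip A 258 bright probes were higher and 422 lower after the combined treatment than after the ligand alone, which is 6.90% of the bright probes (2.62% higher, 4.29% lower). On chip B 161 were higher and 21 lower, or 1.85% (1.63% higher, 0.213% lower). The middle 90% of differences ran between -0.94 and 0.74 on chip A and between -0.51 and 0.64 on chip B. The SD over probes was 0.56 on chip A and 0.37 on chip B. On chip A the smallest difference called higher was 1.0015, and the largest not called was 0.9996.

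**Figure D1:**
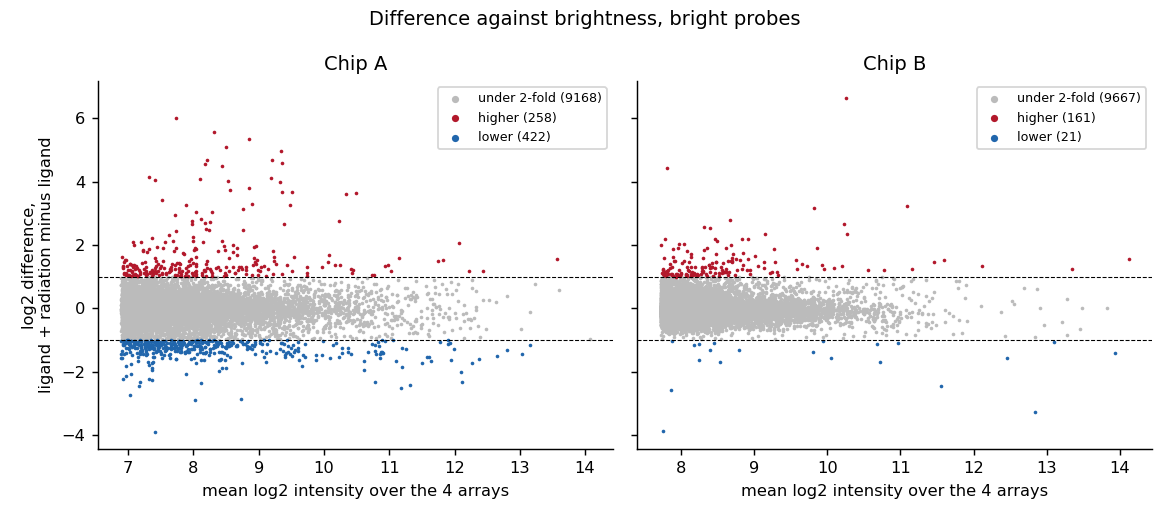
Log2 difference, ligand plus radiation minus ligand, of each bright probe (vertical axis) against the mean of its log2 values on the chip's 4 arrays (horizontal axis), with dashed lines at a 2-fold difference. Chip A has 258 probes above and 422 below the lines and chip B 161 above and 21 below, with the tallest points on the higher side of both chips.

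The lean of chip A depended on the size of the difference. At 1.5-fold 766 probes were higher (7.78% of the bright probes) and 1135 lower (11.5%), and the majority was still lower at 2-fold. At 4-fold it had turned, with 52 higher (0.528%) and 17 lower (0.173%). At 8-fold 29 were higher (0.294%) and 1 lower (0.0102%). The lower side of chip A was thus broad and shallow, and the higher side narrow and tall. On chip B higher probes were in the majority at each of these sizes. At 1.5-fold 597 were higher (6.06%) and 273 lower (2.77%), at 4-fold 17 (0.173%) and 4 (0.0406%), and at 8-fold 4 (0.0406%) and 2 (0.0203%).

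**Figure D2:**
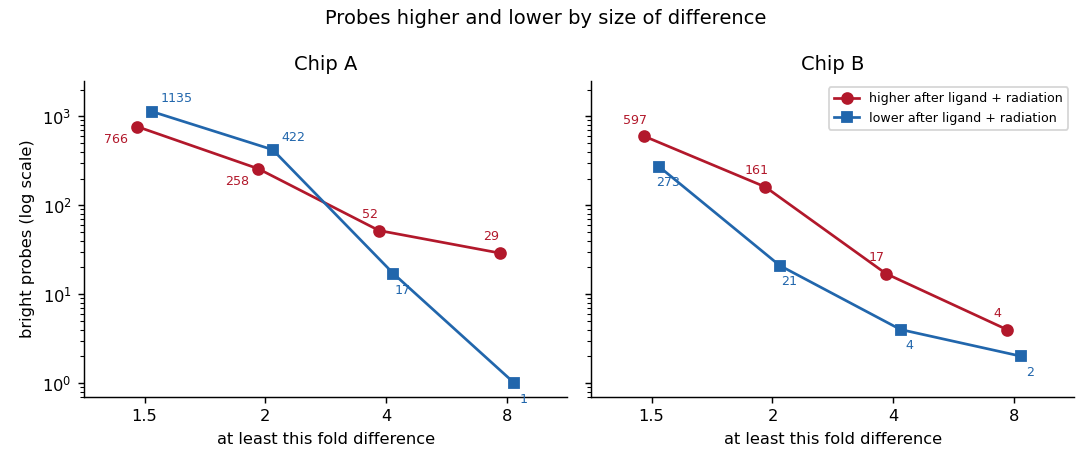
Number of bright probes (vertical axis, log scale) that were higher (circles) or lower (squares) after ligand plus radiation than after the ligand alone, at 4 sizes of fold difference (horizontal axis). The lines cross on chip A, where lower probes outnumber higher ones at 2-fold (422 and 258) but not at 4-fold (17 and 52), and do not cross on chip B.

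Within the bright probes of chip A the called share was larger in brighter quartiles. It was 4.63% in the dimmest quartile, then 6.01% and 7.11%, and 9.87% in the brightest. On chip B the shares in the same order were 1.62%, 1.26%, 2.15% and 2.36%. Of the 52 probes at least 4-fold higher on chip A, 23 lay in the brightest quartile and 20 in the next. The high combined value itself enters that brightness. The dim probes left out by the brightness rule were called at 7.68% on chip A and at 3.30% on chip B, on chip B more often than any bright quartile. They leaned otherwise on chip A, with 447 higher and 309 lower. Without the brightness rule the 2 directions of chip A were therefore nearly equal, at 705 higher and 731 lower. On chip B the dim probes leaned the same way as the bright ones, with 232 higher and 93 lower.

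The spread of differences can be set beside that of the other pairs of arrays. On chip A the SD over probes was 0.56 for the combined array minus the ligand array, 0.62 for combined minus radiation and 0.55 for combined minus untreated. It was 0.41 for the ligand array minus the untreated one, and 0.59 for the dim radiation array minus the untreated one. On chip B the values were 0.37, 0.34 and 0.34 for the combined array and 0.29 for the ligand array minus the untreated one. Radiation minus untreated was also at 0.29 there. At 2-fold 680 probes of chip A differed between the combined and the ligand array and 483 between the combined and the untreated one, and 182 and 114 of chip B. Between the radiation and the untreated array 674 probes of chip A and 68 of chip B differed. That pair shares no array with the comparison, and the other pairs do. Combined against radiation gave 828 on chip A and 123 on chip B, and ligand against untreated 233 and 149. Ligand against radiation gave 536 and 171, with an SD of 0.52 on chip A and 0.33 on chip B. On chip B each pair with the ligand array had a higher count than each pair without it, which was not so on chip A. The order of pairs depends on the measure: on chip B combined minus ligand had the widest SD of the 6 pairs, but the interquartile range was 0.33 for it, 0.35 for combined minus radiation and 0.35 for combined minus untreated.

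The levels on the untreated and the radiation arrays can be set beside those of the compared arrays. On chip A both lay nearer to the ligand array for 131 of the 258 higher probes (50.8%) and for 236 of the 422 lower ones (55.9%). Both lay nearer to the combined array for 46 and 35. Nearness does not show that a single array differed, and no such shares over all bright probes were computed to set beside these. On chip B the picture was turned for the higher probes: both arrays lay nearer to the combined array for 105 of 161 (65.2%) and nearer to the ligand array for 43. The pattern in which the radiation array lay with the combined one and the untreated array with the ligand one was found for 35 higher and 83 lower probes on chip A, and for 9 and 5 on chip B. That is 13.6% of the higher and 19.7% of the lower probes of chip A, and 5.59% of the higher and 23.8% of the lower ones of chip B. The opposite split, radiation with the ligand array and untreated with the combined one, held 46 and 68 probes on chip A, and 4 and 2 on chip B.

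**Figure D3:**
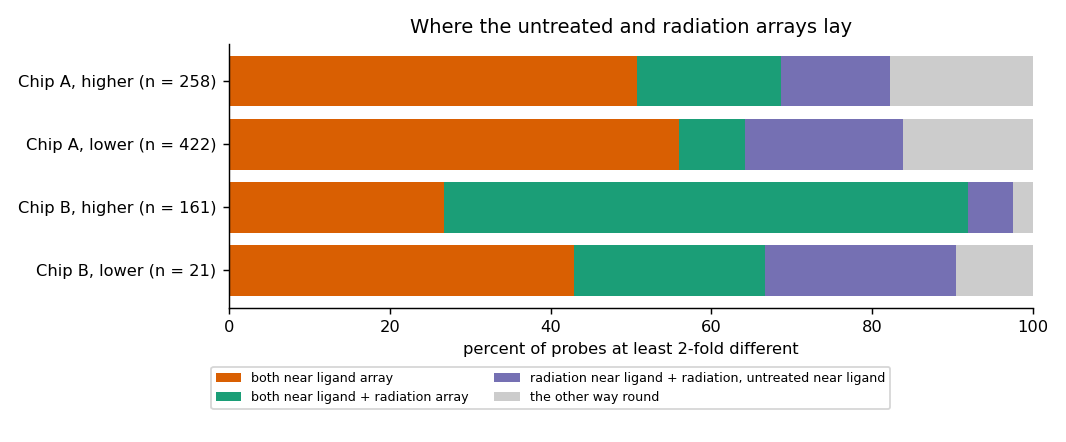
Percent of the probes at least 2-fold different (horizontal axis) by whether the untreated and the radiation array lay nearer to the ligand plus radiation array or to the ligand array, for higher and lower probes of each chip. On chip A the segment with both near the ligand array is the widest (50.8% and 55.9%), and for the higher probes of chip B the segment with both near the ligand plus radiation array (65.2%). Shares over all bright probes were not computed.

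A stricter rule asks for an array at least 1 log2 unit above or below each of the other 3. On chip A the combined array stood alone in this sense for 86 of the higher and 51 of the lower probes, and the ligand array for 17 and 16. Both stood alone in opposite directions for 2 of the lower probes. On chip B the ligand array stood alone for 93 of the 161 higher probes and the combined array for 20. Of the 21 lower probes of chip B, the combined array stood alone for 6 and the ligand array for 2. Without the probes that rest on a single array in this way, chip A kept 155 higher and 357 lower probes and chip B 48 higher and 13 lower. The majorities kept their direction, and the count of higher probes on chip B was cut by more than 3-fold.

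The 93 probes of chip B with a low ligand array had median log2 levels of 8.77 after the combined treatment and 7.30 after the ligand alone, with 8.82 after radiation and 8.83 in untreated cells. The low ligand level follows from the rule that picked these probes, and the other 3 medians were alike. The 20 probes of chip B on which the combined array stood alone and high had medians of 9.40 after the combined treatment, 7.93 after the ligand, 8.11 after radiation and 7.75 in untreated cells. Here the high combined level follows from the same rule.

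The 29 probes of chip A at least 8-fold higher are the top of the 52 at least 4-fold higher. The combined array stood alone and high for 48 of those 52. On the combined array the intensities of the 29 ran between 1697 and 12366 with a median of 5610. On the ligand array they ran between 89.7 and 1202 with a median of 267. On the untreated array the median was 309, and on the dim radiation array 56.0. The combined array was alone and high for all 29, and the other 3 arrays lay within 1 log2 unit of each other for 28 of them. The brightness rule did not depend on the combined array for 25 of the 29, which were also in the brighter 50% by the mean of the other 3 arrays. On chip B 4 probes were at least 8-fold higher. The combined array stood alone for 2 of these and the ligand array for the other 2.

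**Figure D4:**
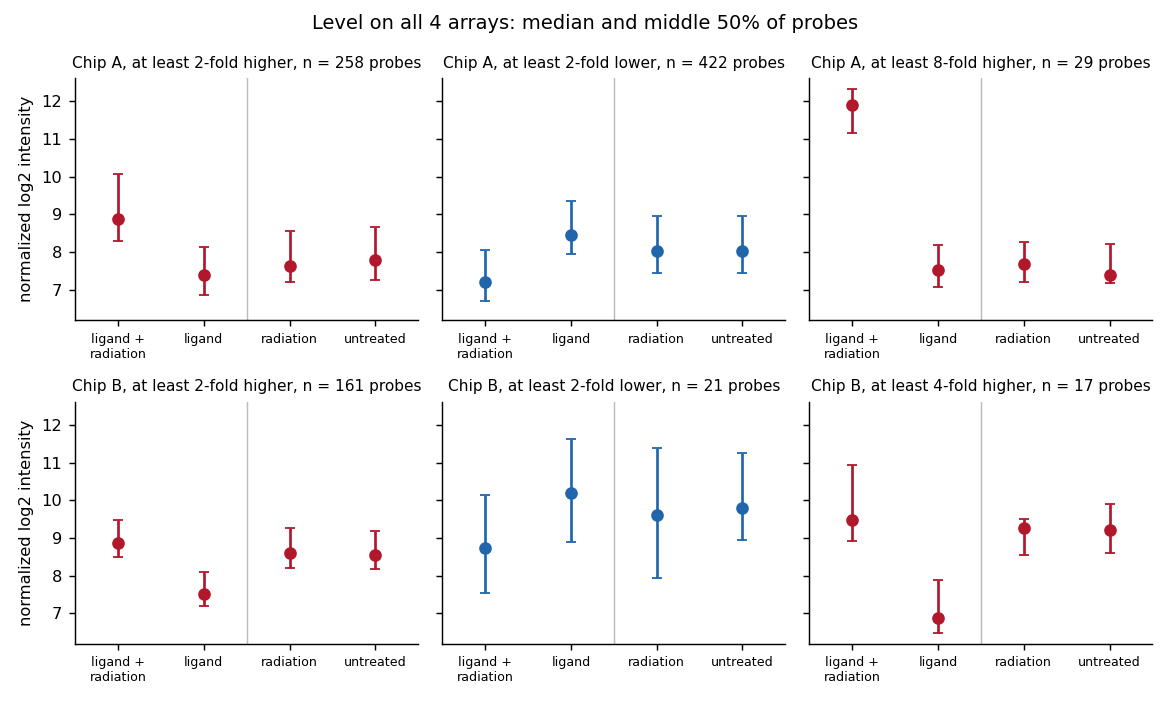
Normalized log2 intensity (vertical axis) on the 4 arrays of a chip (horizontal axis) for 6 groups of probes, with points at the median and bars over the middle 50% of probes. The 29 probes at least 8-fold higher on chip A are bright on the ligand plus radiation array and near 7.5 on the other 3, whereas for the 17 probes at least 4-fold higher on chip B the ligand array is the low one.

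The 17 probes of chip A at least 4-fold lower were less uniform. Their median intensity was 137 after the combined treatment and 788 after the ligand. The ligand array stood alone and high for 10 and the combined array alone and low for 6 of them, with 2 counted under both. The 3 arrays other than the combined one lay within 1 log2 unit of each other for 4 of the 17. Of the 4 probes at least 4-fold lower on chip B, 2 had the combined array alone and low and 1 the ligand array alone and high.

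The highest bright probe of chip A was obshum40K:A#06173. Its deposited intensity was 6589 after the combined treatment and 89.7 after the ligand, with 24.5 after radiation on the dim array and 144 in untreated cells. The combined array stood far above the others, and the difference from the ligand array was 6.01 log2 units. On the ligand array 21.0% of the spots of the chip were dimmer, so the lower level is near the dim end of a scale with no background value.

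The lowest bright probe of chip A was obshum40K:A#14805. It read 71.3 after the combined treatment and 1040 after the ligand, with 59.0 after radiation on the dim array and 205 in untreated cells. The normalized log2 levels in that order were 5.56, 9.47, 7.77 and 6.82. The difference was -3.91 log2 units, with the ligand array high and the combined array low relative to the others. On the combined array 7.33% of the spots were dimmer, so its level there is near the dim end, and the files give no background to set a limit.

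The highest bright probe of chip B was obshum40K:B#29304, the brightest spot of the combined array. Its intensity was 135556 there and 414 after the ligand, with 337 after radiation and 369 in untreated cells. The 3 lower values were alike. The difference was 6.65 log2 units, and it was 8.26 with arrays scaled to a common median, since quantile normalization limits the top spot of an array. The brightest spots of the other arrays of chip B read 33786 (untreated), 29953 (ligand) and 20803 (radiation). The reading of 135556 has a number form held by 10 bright probes of the combined array, described under the other observations. Whether it is on the same scale as the others was not tested.

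The lowest bright probe of chip B was obshum40K:B#44251. It read 60.5 after the combined treatment and 910 after the ligand, with 62.0 after radiation and 781 in untreated cells. Both irradiated arrays were low and both unirradiated arrays high, and of the 4 probes printed here it was the one with that pattern. The difference was -3.86 log2 units with the ligand and -3.80 without it. On the 2 irradiated arrays 0.817% (combined) and 0.528% (radiation) of the spots were dimmer, and the size of both differences is set by those dim readings.

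Radiation alone against no treatment uses the other pair of arrays and shares none with the comparison. Of the 258 probes of chip A that were higher, 136 (52.7%) were also higher after radiation alone than in untreated cells, against 52.6% of all bright probes. Of the 422 lower ones 179 (42.4%) were also lower, against 47.4%. Without the probes on which the combined or the ligand array stood alone, the shares on chip A were 69 of 155 higher (44.5%) and 153 of 357 lower (42.9%). Among the 52 at least 4-fold higher it was 36 (69.2%). The median difference of these 52 was 3.20 with the ligand and 0.11 without it. Past 2-fold without the ligand were 1 of them the same way and 2 the opposite way. For chip A the pair without the ligand includes the dim array. On chip B 97 of 161 higher probes (60.2%) were also higher, against 51.9% of all bright probes, and 16 of 21 lower probes (76.2%) were also lower, against 48.0%. The sizes without the ligand were small. The median difference of those 161 probes was 1.26 with the ligand and 0.05 without it. For the 21 lower probes the medians were -1.37 with the ligand and -0.37 without it. Over all 182 called probes of chip B 62.1% went the same way in both pairs, and 51.1% did when arrays were scaled to a common median.

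Few probes passed 2-fold the same way in both pairs. They numbered 14 higher and 27 lower on chip A, which is 5.43% and 6.40% of the lists with the ligand, and 6.76% and 5.78% of the lists without it. Past 2-fold in the opposite direction without the ligand were 22 of the higher and 9 of the lower probes of chip A. The higher list held more opposite than same-way probes. Over all bright probes of chip A, too, more were lower (4.74%) than higher (2.10%) without the ligand. On chip B the same-way probes numbered 2 higher and 5 lower, with 1 opposite in each list, or 1.24% and 23.8% of the lists with the ligand and 8.33% and 11.4% of those without it. For comparison, 207 probes (2.10%) were higher and 467 (4.74%) lower after radiation alone on chip A, and 24 (0.244%) and 44 (0.447%) on chip B. The 27 probes of chip A that were lower in both pairs had median differences of -1.38 with and -1.42 without the ligand. The 14 that were higher in both had medians of 1.21 and 1.31. Higher probes of chip B that rest on the low ligand array (93) or on the combined array alone (20) can be left out. Of the remaining 48 higher probes, 27 (56.2%) went the same way without the ligand, against 51.9% of all bright probes. Of the 13 lower probes of chip B left by the same rule, 11 (84.6%) did, against 48.0%.

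Called probes were unevenly placed along the order of probe IDs. On chip A, IDs numbered up to 5000 held 27.0% of the bright probes but 183 of the 422 lower ones (43.4%), and 54 of the 258 higher ones (20.9%). Their median difference was -0.07. At the other end, IDs numbered from 40001 to 45000 held 9.06% of the bright probes and 15 of the lower (3.55%) but 34 of the higher ones (13.2%), with a median of 0.12. A running median over 51 probes moved between -0.71 and 0.32 on chip A and between -0.35 and 0.43 on chip B. On chip B it went up and down in a repeating way. Shifted by 250 places, the running median correlated with itself at 0.31 over the probes of the chip, and shifted by 128 places at -0.40. These correlations are over overlapping windows of the same arrays and describe them. On chip A the highest such value, over shifts of 100 to 600 places, was 0.44 at 495 places, and the lowest -0.03 at 600. Radiation minus untreated, which shares no array with the comparison, reached 0.44 at 485 places on chip A and 0.12 at 242 on chip B. With the running median removed, chip A had 239 higher and 328 lower probes and chip B 174 higher and 19 lower.

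The distance to the nearest probe of the same group along this order can be given for the probes on which a single array stood alone. Larger groups lie closer together for their size alone, and no value for random placement was computed. Of the 86 probes of chip A with the combined array alone and high, 52 had another of them within 20 places and the median distance to the nearest was 9 places. Of the 51 with the combined array alone and low, 2 had another within 20 places and the median distance was 76. Of the 29 probes at least 8-fold higher 17 had another within 20 places, and the other bright probes within 10 places of them had a median difference of 0.09. On chip B 48 of the 93 probes with the ligand array alone and low had another within 20 places (median distance 19 places), and of the 20 with the combined array alone and high 0 had. The sources used here do not say how the order of IDs relates to the place of a spot on the slide, and its part in these results was not tested.

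**Figure D5:**
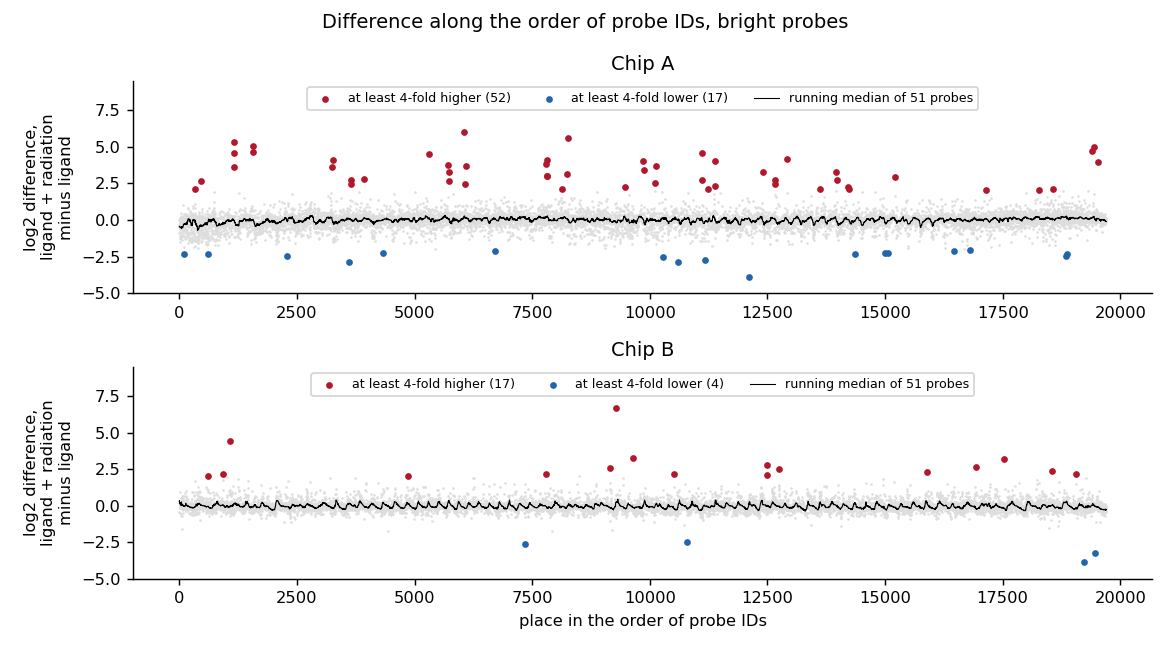
Log2 difference, ligand plus radiation minus ligand, of bright probes (vertical axis) against their place in the order of probe IDs (horizontal axis), with probes at least 4-fold different in colour and a running median of 51 probes as a line. Of the 52 higher probes of chip A 34 have another within 20 places, of the 17 lower ones 0, and the running median of chip B moves up and down in a repeating way.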

How the data were processed

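RNA was amplified by T7 transcription and labelled with Cy3, per the labels' protocols, so each array has 1 colour. The deposited files give 1 intensity per probe on a linear scale. The scanner, the background treatment and the array build were not given in the sources used here. Probes marked as not detected (0 to 3 per array) were left out on their chip. A second deposited table holds a score per probe, a straight-line function of log2 intensity on each array (r at least 0.999998), with 1 unit equal to 1.41-fold to 1.59-fold. It served as an alternative. Centring differed between columns, with medians of -0.41 (combined) and -0.30 (ligand) on chip A, where radiation stood at 0 and untreated at 0.10. On chip B they were 0.28 and 0.19, with 0 for radiation and -0.08 for untreated.

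No background was subtracted. The log2 of each intensity was quantile-normalized over the 4 arrays of a chip (limma 3.58.1, R 4.3.3). Counts and shares were computed in Python 3.11.15 with pandas 2.3.3. Groups were taken from the sample titles. The scripts were tested on simulated data with known changes. These were 4-fold changes in the combined array only, with less noise than the spread seen here. The simulation had no dim array and no drift along the probe order. It checks the computation and does not measure how reliable a call at 2-fold is in these data. Members, rules and lists were chosen with earlier results of these data known. The rule for printed probes took the highest and the lowest bright probe of each chip. Gene lists were not evaluated, as no table pairs probes with genes. Precision is limited by the number of arrays, 1 per treatment and chip.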

Additional observations from a re-analysis of the deposited data

Results flagged for a closer look

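The values below have opposite signs, or majorities on opposite sides, with and without the ligand. The differences between these pairs were not tested, since there are no replicate arrays. The share of higher probes among those at least 2-fold different on chip B was 88.5% for radiation with the ligand and 35.3% (24 higher, 44 lower) for radiation without it. Of the 161 higher probes with the ligand, 93 rest on a low ligand array. The probe obshum40K:A#14805 was at -3.91 log2 units with the ligand and 0.94 without it, and the value without it uses the dim radiation array. The probe obshum40K:B#29304 was at 6.65 with the ligand and -0.13 without it, a value inside the SD of 0.29 over probes of that pair on chip B.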

How the results depend on the processing

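The directions of both chips and of the 4 printed probes were the same under all alternatives run: median scaling, cyclic loess, normexp with an offset of 50, quantile normalization of the 2 compared arrays, other brightness rules, the deposited value table, a running median removed and, chosen after seeing the data, leaving out the radiation array. With that array left out, 272 probes were higher and 437 lower on chip A, and 165 and 24 on chip B. Of the summary values recomputed, 79 stayed within a set range of those reported (1.5 times for counts and spreads, the 95% Wilson interval for percentages) and 31 did not. In the deposited value table, where 1 unit is less than 2-fold, chip A had 1752 probes past 1 unit (33.2% higher, spread 0.89, 741 with the combined and 168 with the ligand array alone, 55.7% the same way without the ligand), and chip B 726 (spread 0.58, 279 and 156 alone). With no filter on dim probes chip A had 1436 (49.1% higher, 274 and 78 alone, 51.9% the same way) and chip B 507 (77.5% higher, 81 and 161 alone, 52.1% the same way). Among the brightest 25% chip A had 418 (16 with the ligand array alone) and chip B 111 (16 with the combined and 61 with the ligand array alone). With normexp chip B had 288 (47 with the combined array alone), and on chip A the ligand array stood alone for 19. With median scaling 32.0% of the called probes of chip A were higher, and 51.1% of those of chip B went the same way without the ligand. With the running median removed 42.2% were higher on chip A. The cause of these shifts was not tested, beyond the different number of probes and the different unit. Which array stood alone needs 4 arrays and was not run on fewer. No paired analysis was possible because each treatment has 1 array per chip. With no background value, sizes next to dim spots are not limited from below.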

Other observations

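The deposited intensities come in several number forms, which differ between the compared arrays. On chip A 28.3% of the values of the combined array and 6.64% of those of the ligand array were exact multiples of 0.5. Another 6.63% of the combined and 4.52% of the ligand values were multiples of a second step, 1.34 on the combined and 1.51 on the ligand array, within 0.0001 of a step. On chip B 765 combined values (3.88%) were written in exponent notation with 3 significant digits. Apart from these, multiples of 0.5 made up 1.63% of the combined and 5.98% of the ligand values. Of the 2749 bright probes of chip A with a combined value that is a multiple of 0.5, 62 were higher and 128 lower (6.91%, against 6.90% of all bright probes of that chip), and 0 of the 29 probes at least 8-fold higher were among them. With such a ligand value 19 of 294 were higher and 5 lower (8.16%). On chip B 40 bright probes had such a combined value, with 0 higher and 3 lower (7.5%, against 1.85%). Of these, 2 were at least 4-fold lower, and obshum40K:B#44251 at 60.5 has this form. With such a ligand value 19 of 499 were higher and 3 lower on chip B (4.41%). A second step of 1.52 was found on chip B's ligand array, and 47 bright probes were multiples of it. Their median difference was 0.66 log2 units, with 13 higher and 1 lower, which is 29.8% of them against 1.85% of all bright probes of that chip. On chip A the second step of the combined array held 122 bright probes with 14 higher and 4 lower (14.8%), and that of the ligand array 77 with 0 higher and 2 lower (2.60%). A second step of 1.54 on the combined array of chip B held 10 bright probes, with 1 higher and 0 lower (10%). The 1 higher probe was at least 8-fold higher. These probes were found after the values were seen, and the sources used here do not say what the forms stand for.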
